A study of Mus musculus with 97 samples.

Results

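The 5 genes Slc17a7, Ctxn1, Calm2, Marcks and Sprn were followed through cortex and hippocampus of older APOE4 or APOE3 knock-in mice, which carry the human allele, after chemotherapy or vehicle. They were chosen by their known high expression in neurons and selected on levels seen in earlier results of these data, so their levels are given as a description with no test. They are 5 of the 19962 genes measured. Expression was read on the GeoMx Digital Spatial Profiler of NanoString with its mouse Whole Transcriptome Atlas, in which ultraviolet light frees probe tags from a chosen region of a tissue section and the tags are then sequenced. The 97 libraries fell into 12 groups, 11 with 8 libraries and APOE3 DD cortex with 9. Both treated groups received doxorubicin, 3 mg/kg each week, joined by docetaxel in DD (10 mg/kg each week) or by cyclophosphamide in DC (40 mg/kg each week). Mice of the vehicle groups received 50% DMSO in 50% PBS, and treatment was injected into the peritoneum 2 times per week for 2 weeks. All groups, the vehicle ones included, are human APOE knock-ins, and the labels give no animal, so regions of the same animal cannot be recognised.

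Excitatory neurons of cortex and hippocampus load glutamate into synaptic vesicles through the transporter encoded by Slc17a7, which makes it their defining marker. Calm2 is among several genes that encode the same calmodulin protein, the calcium sensor of synapses, and Marcks encodes a membrane-bound substrate of protein kinase C that binds calmodulin and cross-links actin. Ctxn1 encodes cortexin 1, a small membrane protein of cortical neurons in rodents, and Sprn encodes Shadoo, a membrane-anchored relative of the prion protein made in the brain. Calm2 and Marcks are also made by many cells that are not neurons.

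In the annotation (GRCm38, the mm10 sequence) all 5 are protein-coding. Slc17a7 lies on chromosome 7 at 45163921 to 45176139, Sprn on chromosome 7 at 140150628 to 140154659, and Ctxn1 on chromosome 8 at 4257646 to 4259274. Marcks lies on chromosome 10 at 37133243 to 37138926 and Calm2 on chromosome 17 at 87433401 to 87446935. Promoter sequences were found for 3 of the 5 genes in the RefSeq table of GRCm38.p6, and they are shown because these 3 span the range of the measured levels, Ctxn1 the highest and Slc17a7 the lowest. Each runs 5′ to 3′ from 250 bases before to 50 bases after the start of the gene, at chr8:4259225-4259524 on the minus strand for Ctxn1, chr7:45163671-45163970 on the plus strand for Slc17a7 and chr7:140154610-140154909 on the minus strand for Sprn. Capitals mark the GC box GGGCGG on either strand.
Ctxn1: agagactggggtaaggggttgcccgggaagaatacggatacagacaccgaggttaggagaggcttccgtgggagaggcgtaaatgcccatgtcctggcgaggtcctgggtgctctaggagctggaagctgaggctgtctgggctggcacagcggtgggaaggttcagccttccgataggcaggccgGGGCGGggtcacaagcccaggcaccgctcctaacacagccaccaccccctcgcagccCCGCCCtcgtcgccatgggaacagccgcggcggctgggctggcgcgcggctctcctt
Slc17a7: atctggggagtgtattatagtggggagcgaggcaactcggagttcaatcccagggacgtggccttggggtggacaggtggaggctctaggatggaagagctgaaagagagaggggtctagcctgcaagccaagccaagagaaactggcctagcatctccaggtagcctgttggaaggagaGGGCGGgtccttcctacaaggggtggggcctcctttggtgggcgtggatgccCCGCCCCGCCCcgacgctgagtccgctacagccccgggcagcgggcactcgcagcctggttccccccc
Sprn: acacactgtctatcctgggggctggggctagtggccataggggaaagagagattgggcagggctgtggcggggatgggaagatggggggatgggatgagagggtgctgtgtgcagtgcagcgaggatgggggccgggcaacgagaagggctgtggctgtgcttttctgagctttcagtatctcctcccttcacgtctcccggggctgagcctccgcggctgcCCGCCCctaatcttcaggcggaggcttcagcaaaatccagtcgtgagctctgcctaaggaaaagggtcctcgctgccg

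The GC box was found 2 times in the Ctxn1 promoter, 3 times in that of Slc17a7 and 1 time in that of Sprn, against at least 1 match in 35.7% of 32851 RefSeq promoters of this length. All 3 windows were richer in GC (66.3%, 63.7% and 62.0%) than the median promoter (52.7%). They held 21, 13 and 13 CpG, against a median of 7. Neither the TATA sequence TATAAA, present in 13.6% of promoters, nor the palindromic cyclic AMP response element TGACGTCA, present in 1.79%, was found in them on either strand. These matches describe the letters of the windows only.

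Each level below is a gene's value divided by that of the negative probe in the same library. The negative probe has no target and measures background, so a ratio of 1 is background. It ran from 1.02 to 93.1 over the libraries, with medians of 2.68 in APOE4 and 1.27 in APOE3, and total counts ran from 21568 to 1850582. A negative probe of 5 or more was found in 13 libraries, all APOE4: 6 of 8 in DC hippocampus, 4 of 8 in DC cortex, 2 of 8 in DD cortex and 1 of 8 in DD hippocampus. Another 4 libraries held many genes raised in that library alone (APOE4 vehicle hippocampus 3 and 6, APOE4 DD cortex 4 and APOE3 DD cortex 5), by a definition set after the values were seen. All APOE4 libraries lay on 1 collection plate and all APOE3 libraries on the other, so plate and genotype cannot be told apart.

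Ctxn1 had the highest level of the 5 genes, at a median ratio of 10.9 in hippocampus and 27.2 in cortex, ranks 17 and 13 among all genes. Sprn followed at 6.90 in hippocampus and 14.1 in cortex, Marcks at 4.35 and 10.1, and Calm2 at 2.10 and 7.30. Slc17a7 was barely above background, at 1.08 in hippocampus (rank 1529) and 1.85 in cortex (rank 115). The median gene lay at 0.912 in hippocampus and 0.936 in cortex, and 60 and 97 genes exceeded a ratio of 2. The order of the group medians, Ctxn1, Sprn, Marcks, Calm2 and Slc17a7 from high to low, was the same in 11 of the 12 groups, and in APOE3 DC cortex Calm2 stood above Sprn and Marcks. Ratios of different genes also reflect how well each probe binds, and the probe values are not per length.

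**Figure D1:**
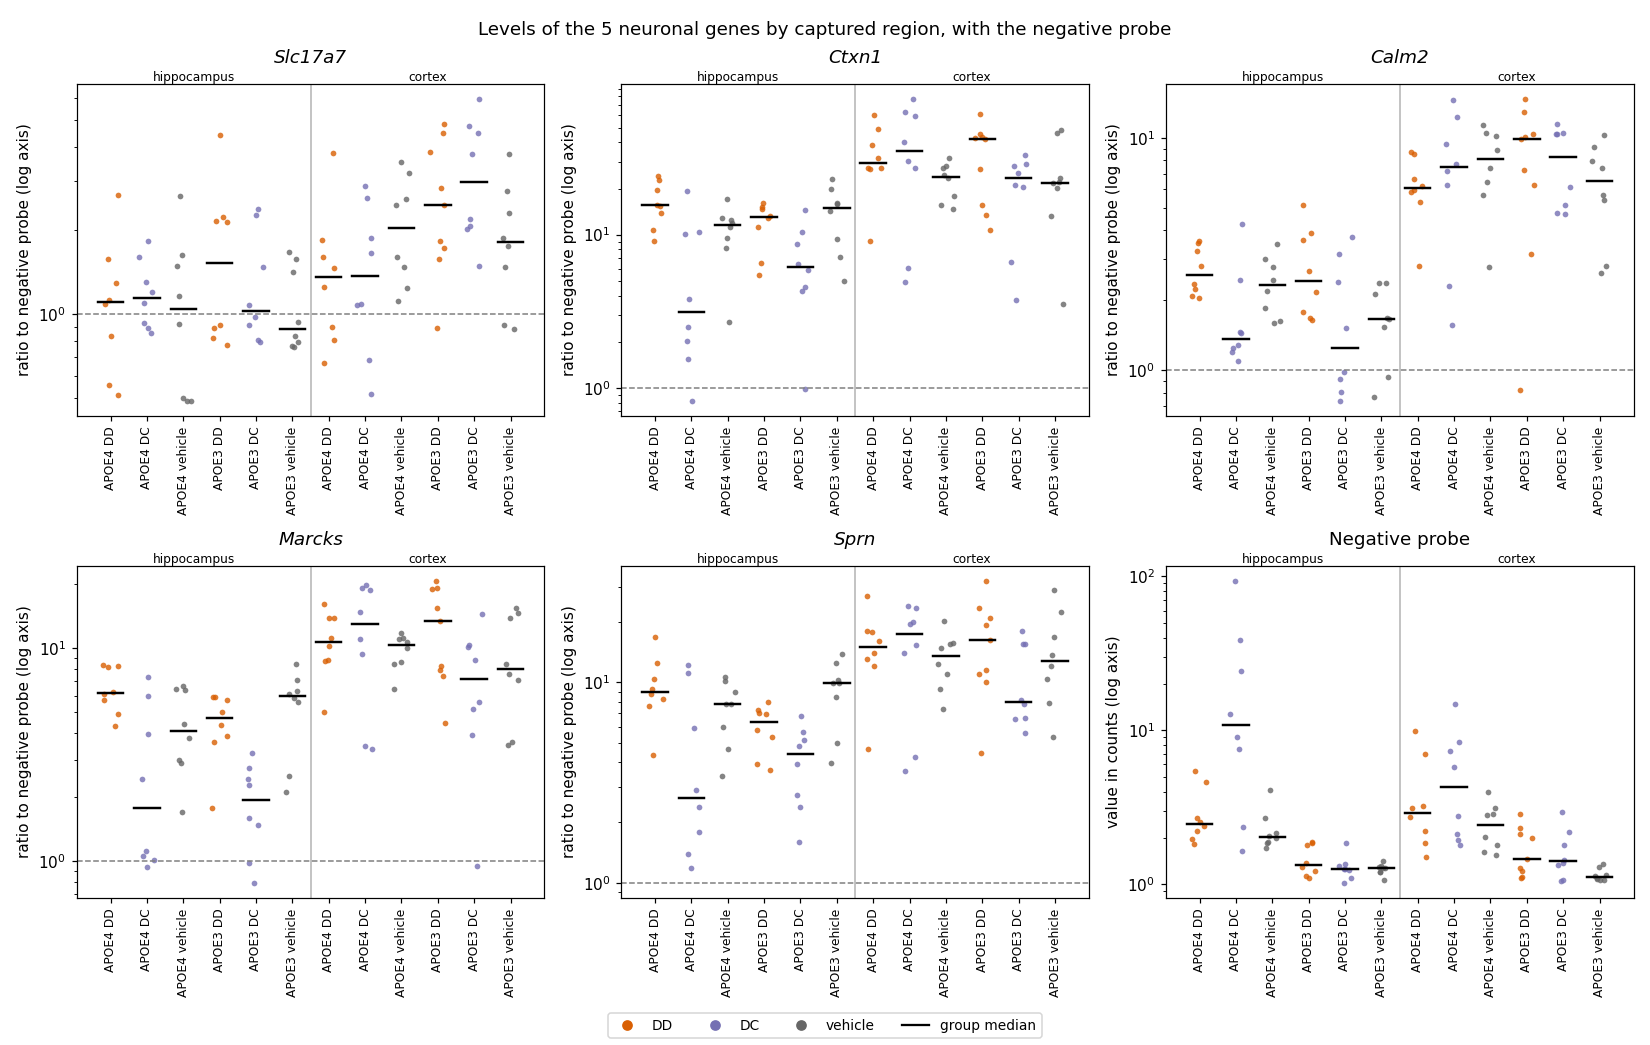
Ratio to the negative probe of each of the 5 genes in every library, on log axes, and in the last panel the value of the negative probe itself in counts. Points are libraries, black bars are group medians, hippocampus groups stand left of cortex groups and the dashed line is background. Cortex medians lie above the matching hippocampus medians for all 5 genes, and the negative probe reaches 93.1 in APOE4 DC hippocampus.

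For Ctxn1 in APOE4 hippocampus, the lowest, median and highest ratios were 9.04, 15.5 and 24.2 after DD, 0.824, 3.13 and 19.2 after DC, and 2.68, 11.5 and 17.1 with vehicle. APOE3 hippocampus gave 5.45, 13 and 16.2 after DD, 0.977, 6.19 and 14.4 after DC, and 4.99, 14.97 and 23.0 with vehicle. The DC groups were the lowest of the hippocampus in both genotypes, and in APOE4 this was the group with 6 libraries of high negative probe. In APOE4 cortex, Ctxn1 ratios were 9.06, 29.5 and 60.7 after DD, 4.92, 35.3 and 76.7 after DC, and 14.8, 23.9 and 31.8 with vehicle. Those of APOE3 cortex were 10.7, 42.1 and 60.9 after DD, 3.75, 23.3 and 33.2 after DC, and 3.50, 21.8 and 48.0 with vehicle. Each cortex group overlapped its hippocampus counterpart. No neighbouring pair in the order of the 12 medians had mean log2 ratios apart by more than the larger SD of the pair (0 of 11). Neighbours in a sorted order are close by construction. This count, here and for the genes below, thus describes how firm the order is and does not test group differences.

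Calm2 in APOE4 hippocampus had ratios of 2.04, 2.58 and 3.58 after DD, 1.09, 1.37 and 4.26 after DC, and 1.597, 2.32 and 3.48 with vehicle (lowest, median and highest). Its values in APOE3 hippocampus were 1.64, 2.42 and 5.12 after DD, 0.739, 1.25 and 3.76 after DC, and 0.768, 1.67 and 2.37 with vehicle. Of the 48 hippocampus libraries, 26 had Calm2 above 2 times the negative probe and 6 had it at 1, the lowest value of the file. In APOE4 cortex the ratios were 2.82, 6.09 and 8.69 after DD, 1.56, 7.46 and 14.6 after DC, and 2.78, 8.11 and 11.4 with vehicle. APOE3 cortex held 0.821, 9.90 and 14.7 after DD, 4.68, 8.25 and 11.5 after DC, and 2.63, 6.52 and 10.3 with vehicle. The order of the 12 Calm2 medians put all 6 cortex groups above all 6 hippocampus groups, and the 1 neighbouring pair beyond its spread (1 of 11) was APOE4 DD cortex and APOE4 DD hippocampus at that border.

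Marcks reached 4.31, 6.19 and 8.34 after DD, 0.935, 1.78 and 7.35 after DC, and 1.71, 4.10 and 6.69 with vehicle in APOE4 hippocampus (lowest, median and highest ratio). APOE3 hippocampus followed with 1.77, 4.70 and 5.94 after DD, 0.793, 1.93 and 3.22 after DC, and 2.12, 5.97 and 8.44 with vehicle. As for Ctxn1, DC was the lowest group of each genotype. Cortex ratios of Marcks in APOE4 were 5.03, 10.7 and 16.2 after DD, 3.38, 12.98 and 19.9 after DC, and 6.47, 10.4 and 11.8 with vehicle. In APOE3 cortex they were 4.46, 13.4 and 20.7 after DD, 0.947, 7.20 and 14.6 after DC, and 3.50, 8.00 and 15.5 with vehicle. Of the 11 neighbouring pairs of medians, 1 lay beyond its spread, APOE4 vehicle hippocampus above APOE3 DC hippocampus.

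Sprn was measured at 4.32, 8.998 and 16.9 after DD, 1.18, 2.64 and 12.2 after DC, and 3.42, 7.80 and 10.6 with vehicle in APOE4 hippocampus, again as lowest, median and highest ratio. The APOE3 hippocampus values were 3.64, 6.37 and 8.02 after DD, 1.59, 4.37 and 6.82 after DC, and 3.95, 9.91 and 13.8 with vehicle. No hippocampus library had Sprn at the lowest value of 1 (0 of 48). Sprn ratios in APOE4 cortex were 4.63, 15.1 and 26.9 after DD, 3.60, 17.5 and 24.0 after DC, and 7.39, 13.6 and 20.1 with vehicle. The APOE3 cortex groups had 4.46, 16.3 and 32.0 after DD, 5.62, 8.00 and 18.0 after DC, and 5.31, 12.9 and 28.8 with vehicle. The cortex medians were above the hippocampus medians in all 6 pairs, with 0 of 11 neighbouring pairs beyond their spread.

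Slc17a7 stayed close to the negative probe in hippocampus. Its lowest, median and highest ratios were 0.510, 1.11 and 2.69 after DD, 0.853, 1.15 and 1.84 after DC, and 0.488, 1.04 and 2.66 with vehicle in APOE4, and 0.776, 1.52 and 4.39 after DD, 0.793, 1.03 and 2.39 after DC, and 0.763, 0.883 and 1.67 with vehicle in APOE3. It stood at the lowest value of 1 in 16 of 48 hippocampus libraries, against 5 of 49 in cortex. In cortex the ratios were 0.668, 1.35 and 3.79 after DD, 0.514, 1.37 and 2.89 after DC, and 1.11, 2.04 and 3.53 with vehicle in APOE4. They were 0.892, 2.46 and 4.83 after DD, 1.49, 2.97 and 5.92 after DC, and 0.885, 1.81 and 3.77 with vehicle in APOE3, where DC held the highest median of the 12 groups. None of the 11 neighbouring pairs of medians differed beyond its spread. With median counts of 2 in hippocampus and 4 in cortex, Slc17a7 passed no low-count filter and was not tested in the main edgeR fits. Differences in Slc17a7 were thus read only on the ratio scale.

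The relatives and partners of the 5 genes were at or near background. Slc17a6 and Slc17a8, the other vesicular glutamate transporters, had median ratios of 0.928 and 1.14 in hippocampus and 0.821 and 0.944 in cortex. Calm3, another calmodulin gene, stood at 0.833 in hippocampus and 0.947 in cortex. Marcksl1, a MARCKS relative, reached 1.08 in hippocampus and 1.504 in cortex. Ctxn2, Ctxn3 and the prion gene Prnp did not exceed 1.17 in hippocampus or 0.982 in cortex. Camk2a, the calmodulin-dependent kinase of excitatory synapses, and the calmodulin-binding proteins Nrgn and Gap43 stood at 0.955, 1.07 and 0.888 in hippocampus and 0.948, 1.44 and 0.935 in cortex.

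Markers of neurons, glia, vessels, blood, cortex and hippocampus were also near background. Of 111 genes on these and the pathway lists, leaving out the 5, only Olig2, which encodes a transcription factor of oligodendrocytes and their precursors, exceeded a ratio of 2 (4.28 in hippocampus and 9.08 in cortex). The other oligodendrocyte markers, such as Mbp, did not. Median ratios of the pan-neuronal list were 0.919 in hippocampus and 0.964 in cortex. The neuronal origin of the 5 signals could thus not be checked by the defining markers of neurons, and the labelled regions could not be checked by the cortex list (highest member 0.956 in hippocampus and 1.12 in cortex) or the hippocampus list (0.995 and 0.982).

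**Figure D2:**
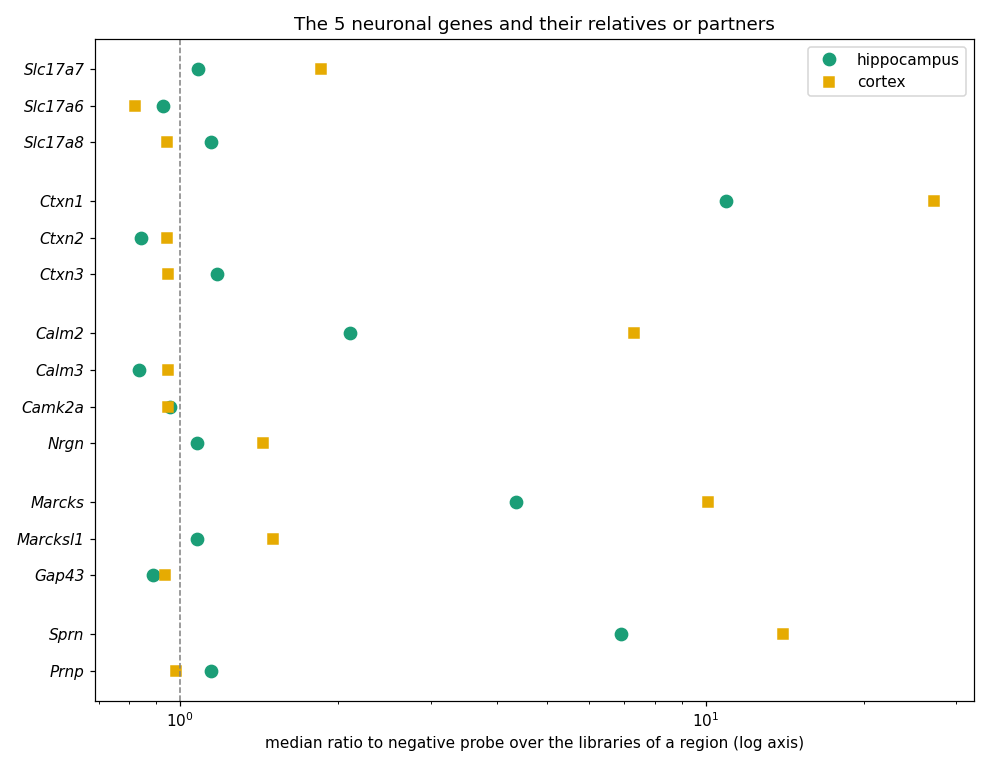
Median ratio to the negative probe of the 5 genes and of their relatives or partners over the 48 hippocampus libraries (circles) and the 49 cortex libraries (squares), on a log axis with background as a dashed line. Ctxn1, Sprn, Marcks and Calm2 stand apart from relatives that lie near 1, and Slc17a7 reaches 1.85 in cortex.

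The first comparison asked how hippocampus differs from cortex under the same genotype and treatment. Calm2 was lower in hippocampus in 4 of the 6 pairs, Ctxn1 and Marcks in 2 each and Sprn in none, by edgeR's quasi-likelihood test with Benjamini-Hochberg adjustment over the 58 genes tested. All 24 tests of the 4 genes gave a log2 fold change below 0, and 8 passed. Of the 58 genes, 22.4% (APOE3 vehicle and APOE3 DC), 24.1% (APOE3 DD and APOE4 DC), 29.3% (APOE4 vehicle) and 31% (APOE4 DD) were called lower in hippocampus, so the 8 of 24 are near that background. Calm2 is 1 of 18 of the 58 genes that passed the filter on low counts in cortex, where it was high, and not in hippocampus. Its count and its regional p-values below are thus no support for a regional difference. The other 3 genes passed in both regions, with 4 of 18 tests called. No label links a region to its animal. P-values here and in every later test come out too small wherever an animal gave several regions to the same group. Where an animal gave both cortex and hippocampus, the fit over both regions ignores that pairing. The effect of this on the regional and region-by-treatment p-values was not tested. In such bulk samples, fewer cells that make a gene and less of its RNA per cell cannot be told apart. Which cells gave these signals was not tested.

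In APOE3 vehicle mice the log2 difference of Calm2 was -1.27 ± 0.38 (SE), or 2.42-fold lower in hippocampus, with 7 of 8 libraries below the cortex mean (edgeR adjusted p = 0.00309). It was -1.02 ± 0.27 in APOE4 vehicle mice, 2.02-fold lower, with all 8 of 8 libraries below (adjusted p = 0.000722). After treatment it was -0.96 ± 0.35 in APOE3 DC (adjusted p = 0.0166) and -0.63 ± 0.25 in APOE4 DD (adjusted p = 0.0229), and 8 of 8 hippocampus libraries lay below the cortex mean in both. The APOE4 DD call was lost without DD cortex 1 or 2 or DD hippocampus 1, 2 or 7, when the difference ran up to -0.35 (adjusted p up to 0.251). Raw ratios separated completely, every hippocampus library below every cortex library, in APOE3 vehicle and APOE3 DC. Such separation was found for 1.72% and 10.3% of the 58 tested genes. Since the filter chose Calm2 by its cortex counts, its p-values and separations only describe these libraries. In APOE4 DC the Calm2 difference was log2 -0.02 (SE 0.21, adjusted p = 0.943), and in APOE3 DD it was -0.49 (SE 0.30, adjusted p = 0.156). The APOE3 DD value passed without DD cortex 5, 7 or 8, at log2 fold changes down to -1.06 (adjusted p up to 0.00428).

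Ctxn1 had its largest regional difference in APOE4 DC mice, at log2 -1.11 ± 0.19, 2.16-fold lower in hippocampus, with 8 of 8 libraries below the cortex mean (edgeR adjusted p = 1.54e-07). The negative probe had a median of 10.9 in these hippocampus libraries and 4.26 in the cortex libraries. This call was kept in all 10 alternative settings tried for it, with log2 fold changes of -2.81 to -0.77, and without each library in turn. Without the 13 libraries of high negative probe, which leaves 2 of 8 hippocampus and 4 of 8 cortex libraries in this pair, it was log2 -1.06 (SE 0.35, adjusted p = 0.00951). In APOE4 DD mice the Ctxn1 difference was log2 -0.44 ± 0.19 (adjusted p = 0.0341) with 8 of 8 libraries below. Leaving out 1 library of the pair ended this call in 14 of 16 fits, all but those without DD cortex 2 or DD hippocampus 4. The other 4 Ctxn1 differences ran from -0.48 to -0.17 and did not pass. Without 1 library, that of APOE3 DD passed at log2 -0.90 to -0.88 (DD cortex 5, 7 or 8 left out) and that of APOE3 DC at -0.68 to -0.63 (DC cortex 7 or 8 or DC hippocampus 3 or 6 left out).

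For Marcks the APOE3 DC difference was log2 -0.79 ± 0.31, with 7 of 8 hippocampus libraries below the cortex mean (edgeR adjusted p = 0.0265), and this call was lost without DC hippocampus 2 or DC cortex 6 (adjusted p up to 0.0657). Its counts there were only 1 to 6 per library, against 1 to 32 in cortex. The APOE4 DC difference was -0.52 ± 0.18 with 8 of 8 libraries below (adjusted p = 0.00730). Without the libraries of high negative probe that value was log2 -0.55 (SE 0.36, adjusted p = 0.225). In APOE4 vehicle the Marcks difference was -0.47 (adjusted p = 0.0511), and it passed without vehicle cortex 1 or 2 (log2 -0.52 to -0.51) and with the pass of wells as a block (log2 -0.50, adjusted p = 0.0299, 32.8% of genes called lower). Its APOE3 DD difference, -0.39, passed without DD cortex 5, 7 or 8 or DD hippocampus 4 (log2 -0.99 to -0.54). Sprn differences ran from log2 -0.36 to -0.03, and none of the 6 passed. That of APOE3 DD did without DD cortex 5, 7 or 8 or DD hippocampus 1 or 4 (log2 -0.93 to -0.47). All 4 genes thus passed in APOE3 DD without DD cortex 5, 7 or 8. Over fits without 1 library, their lowest values there were log2 -1.06 (Calm2), -0.90 (Ctxn1), -0.99 (Marcks) and -0.93 (Sprn). The cause of this shared move was not tested. For fits that left out 1 library, here and below, the share of genes called was not computed.

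Read in the order of their wells, the libraries of each plate fall into 4 passes, each holding 2 libraries of every group of that plate (3 of APOE3 DD cortex in 1 pass). Within passes, the difference of each of the 8 called pairs was below 0 in 4 of 4. These are the libraries that gave the calls, so this is no separate support. Some uncalled pairs, such as Ctxn1, Marcks and Sprn in APOE3 DD, were also below 0 in 4 of 4. Others were not, such as Sprn in APOE3 vehicle (2 of 4). With the pass as a block in edgeR, a setting chosen after the data were seen, all 8 calls were kept.

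How large these differences are depends on the scaling. With upper-quartile scaling 12 of the 24 tests passed, where 22.4% (APOE3 vehicle and APOE4 DC), 29.3% (APOE3 DD), 31% (APOE3 DC) and 32.8% (APOE4 vehicle and APOE4 DD) of the 58 genes were called lower. Relative to total counts, 20 of the same 24 tests passed, where 34.5%, 51.7%, 51.7%, 55.2%, 58.6% and 72.4% of the 58 genes were called lower in APOE3 vehicle, APOE3 DC, APOE4 DD, APOE4 vehicle, APOE3 DD and APOE4 DC. Next, on the ratio to the negative probe, fitted with limma over all genes, 30 of 30 tests (Slc17a7 included) were below 0. Of these 5 passed, and 21 had an unadjusted p under 0.05. The share of genes with such an unadjusted p is not given, so the 21 cannot be weighed. The calls were Calm2 in APOE3 DC, and Ctxn1, Calm2, Marcks and Sprn in APOE4 DC (log2 -2.81, -1.94, -2.26 and -1.93 in APOE4 DC). The negative probe, which is the divisor, was 5 or more in 6 of 8 hippocampus and 4 of 8 cortex libraries of APOE4 DC. The share of all genes called lower on the ratio scale was 0.00501% in APOE4 DD, 0.01% in APOE3 vehicle and 0.0351% in APOE3 DD. It was 0.0451% in APOE3 DC, 0.1% in APOE4 vehicle and 0.155% in APOE4 DC. The median of all genes lay near background (0.912 in hippocampus and 0.936 in cortex), while the 5 were selected on their levels. These shares are thus no matched background for the 5 genes. The median of the 58 tested genes was itself lower in hippocampus under both, by log2 -1.45 to -0.75 with total counts and -1.49 to -0.68 with the ratio, against -0.27 to 0.31 with the TMM scaling of edgeR. Of all calls over the 6 pairs, 44.7% were lower in hippocampus with TMM, 94.5% with total counts and 83.3% with the ratio.

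Relative to that median, Calm2 was lower in hippocampus in 6 of 6 pairs under all 3 scalings, by log2 -1.21 to -0.27 with TMM. Ctxn1 was below it in 6 of 6 pairs with TMM and total counts and in 5 of 6 with the ratio. Marcks was below the median in 5 of 6 pairs under all 3, and Sprn in 3 of 6. In APOE3 vehicle the distance of Marcks from the median was only log2 -0.009 (TMM), -0.03 (total counts) and -0.004 (ratio). How many of the tested genes were below the median as often was not computed. Slc17a7, with the ratio alone, was below it in 3 of 6 pairs, and its difference ran from log2 -1.29 (SE 0.38, limma adjusted p = 0.317) in APOE3 DC to -0.18 (SE 0.38, adjusted p = 1.00) in APOE4 DC. The Calm2 count again carries no weight, since the filter chose Calm2 by its cortex counts.

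**Figure D3:**
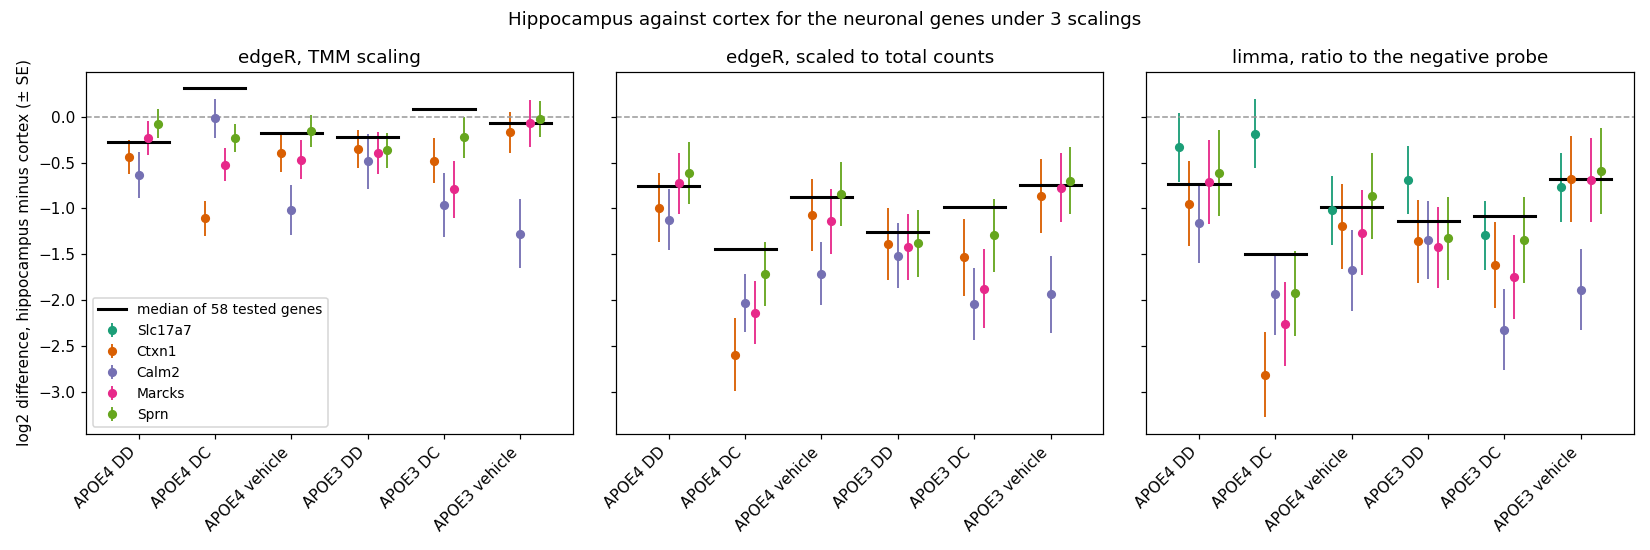
Log2 difference of hippocampus minus cortex for each gene within each genotype and treatment, with standard errors, under 3 scalings in 3 panels. Thick black lines are the median of the 58 tested genes. All points lie below 0, and the median moves from -0.27 to 0.31 with TMM to -1.45 to -0.75 with total counts.

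The treatment comparison asked whether DD or DC changed these genes relative to vehicle. Ctxn1 was higher in APOE4 cortex after both regimens, 2 of 28 tests, and no other test passed. Of the tested genes, 12.3% (APOE4 DD), 1.75% (APOE4 DC), 3.51% (APOE3 DD) and 12.3% (APOE3 DC) were called in cortex, and 5.26% (APOE4 DD), 2.63% (APOE3 DD) and 21.1% (DC of both genotypes) in hippocampus. In APOE4 cortex, Ctxn1 had log2 CPM of 13.91 to 14.55 after DD (median 14.13), 13.62 to 14.69 after DC (median 14.10) and 13.16 to 13.94 with vehicle (median 13.78). The 8 DD libraries thus overlapped the vehicle libraries only at their edge, and the DC libraries more widely.

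After DD, Ctxn1 was 1.42-fold higher (log2 0.51, SE 0.16, edgeR adjusted p = 0.0366), above the vehicle mean in 8 of 8 libraries. After DC it was 1.49-fold higher (log2 0.58, SE 0.16, adjusted p = 0.0370) in 7 of 8 libraries, the only call among the 57 genes. Both comparisons share the 8 vehicle libraries. In APOE4 cortex the Ctxn1 share of the counts of the 58 genes was 1.96% ± 0.335 after DD, 2.01% ± 0.541 after DC and 1.25% ± 0.325 with vehicle (SD, n = 8 each). In APOE3 cortex, where Ctxn1 was not called, it was 1.62% ± 0.365, 1.61% ± 0.657 and 1.12% ± 0.382 in that order (n = 9, 8 and 8). The share of Mtch2, another of the 58 genes, was 18.5% ± 3.03 after DD, 18.4% ± 4.55 after DC and 26.6% ± 5.76 with vehicle in APOE4 cortex. In APOE3 cortex the Mtch2 share was 22.8% ± 4.26, 18.8% ± 8.74 and 34.6% ± 7.07. The part of Mtch2 in the result was not tested.

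Both Ctxn1 calls ended under upper-quartile scaling, total-count scaling, no low-count filter, counts summed over neighbouring wells, wells as a random block, and the ratio to the negative probe, where adjusted p ran from 0.0554 to 0.993 while every log2 fold change stayed above 0. Within the 4 passes the difference from vehicle was above 0 in 4 after DD (log2 0.13 to 0.90) and in 3 after DC (-0.27 to 0.86). The passes hold the libraries that gave the calls, so this is no separate support. Both calls were kept with the pass as a block in edgeR (adjusted p = 0.00936 and 0.00613). They were also kept by DESeq2 (log2 0.51 and 0.52, adjusted p = 0.0489 and 0.0473). They were also kept without the libraries of high negative probe (log2 0.66 and 0.91, adjusted p = 0.0114 and 0.000280). The DD call was lost without DD cortex 4 and the other libraries with many lone raised genes (log2 0.45, adjusted p = 0.0846). With 1 library left out at a time, the DD call was lost in 10 of 16 fits (without DD 3, 4, 5 or 7 or vehicle 3 to 8, log2 down to 0.32) and the DC call in 7 of 16 (without DC 1, 3 or 4 or vehicle 5 to 8, log2 down to 0.38). In APOE3 cortex the log2 fold change of Ctxn1 was 0.24 (SE 0.18, adjusted p = 0.748) after DD and 0.17 (SE 0.19, adjusted p = 0.5997) after DC. The difference between genotypes, tested as an interaction, was log2 0.27 (SE 0.24, adjusted p = 0.719) for DD and 0.41 (SE 0.25, adjusted p = 0.317) for DC, so Ctxn1 was not shown to respond differently in APOE4 and APOE3 cortex.

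**Figure D4:**
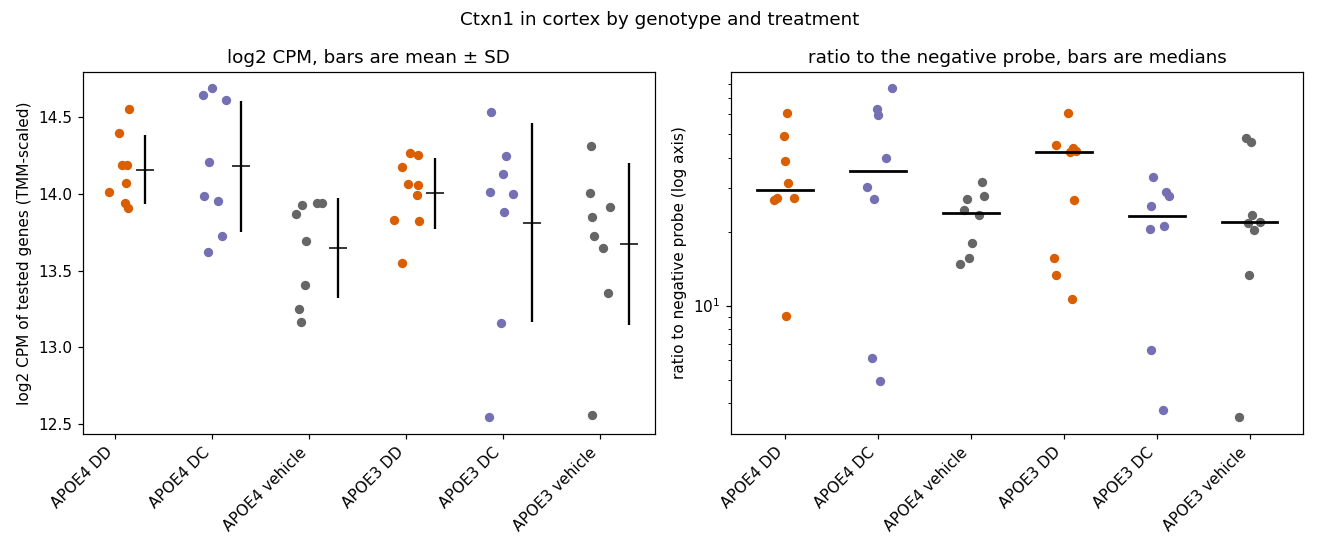
Ctxn1 in every cortex library by genotype and treatment. The left panel gives log2 CPM over the tested genes with mean and SD beside the points, and the right panel the ratio to the negative probe on a log axis with medians as bars. In APOE4 the DD and DC libraries lie mostly above the vehicle libraries on the left, while on the right the groups overlap widely.

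Calm2 in cortex did not pass after either regimen. Its widest value was in APOE3 cortex after DC, at log2 0.66 (SE 0.28, adjusted p = 0.105, 8 of 8 libraries above the vehicle mean), and after DD in that genotype it was 0.13. In APOE4 cortex Calm2 gave log2 -0.34 after DD and -0.09 after DC. Calm2 did not pass the filter in hippocampus. Marcks and Sprn in APOE4 DC hippocampus had log2 0.54 (SE 0.23) and 0.38 (SE 0.16), each with adjusted p = 0.0586, and with total counts, no filter and the ratio the Marcks value turned to -0.67, -0.82 and -0.90 and the Sprn value to -0.67, -0.78 and -1.05. Both passed with upper-quartile scaling (log2 0.75 and 0.58, adjusted p = 0.0343 and 0.0295), where 31.6% of 38 genes were called, and Marcks with the pass as a block (log2 0.56, adjusted p = 0.0403, 34.2% of genes called). Leaving out 1 library made each pass in 4 fits, without DC 3 or 7 or vehicle 6 for both, or vehicle 1 for Marcks and vehicle 7 for Sprn. In APOE3 DC hippocampus the TMM values were log2 -0.56 for Marcks and -0.21 for Sprn (adjusted p = 0.359 and 0.776). With total counts both were called lower, at -1.37 (adjusted p = 0.0123) and -1.03 (adjusted p = 0.0448). In that fit 31.6% of the 38 genes were called, counting both directions. On the ratio scale the Marcks and Sprn values were -1.52 and -1.19 (limma adjusted p = 0.957 each). With TMM, all other treatment values of Marcks and Sprn lay between log2 -0.32 and 0.32 and had adjusted p of 0.230 or more.

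Slc17a7, read only as a ratio, did not pass in any treatment contrast. In cortex its log2 differences from vehicle were -0.57 after DD and -0.58 after DC in APOE4 (SE 0.39 each, limma adjusted p = 0.739 and 0.761), and 0.44 and 0.76 in APOE3 (SE 0.38 and 0.39, adjusted p = 0.996 and 0.985). The values for DC in APOE4 and APOE3 thus had opposite signs. Their difference was log2 -1.34 (SE 0.55, adjusted p = 0.965), at an unadjusted p of 0.0157. In hippocampus all 4 differences lay between log2 0.12 and 0.51.

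The genotype comparison set APOE4 against APOE3 under the same treatment. Marcks was 1.81-fold higher in APOE4 DC hippocampus (log2 0.86, SE 0.31, edgeR adjusted p = 0.0391, 8 of 8 libraries), and the other 20 tests did not pass. Of the tested genes, 21.1% (vehicle), 21.1% (DD) and 24.6% (DC) were called in cortex, and 39.5% (vehicle), 7.89% (DD) and 21.1% (DC) in hippocampus. Marcks counts were 12 to 94 per library in APOE4 and 1 to 6 in APOE3. The negative probe ran from 1.63 to 93.1 in the APOE4 libraries and from 1.02 to 1.86 in the APOE3 libraries, and without those of 5 or more the Marcks difference was log2 0.45 (SE 0.44, edgeR adjusted p = 0.582). On the ratio scale the Marcks groups overlapped (0.935 to 7.35 in APOE4 and 0.793 to 3.22 in APOE3) with log2 0.30 (SE 0.46, limma adjusted p = 1.00). The Marcks call was lost in 10 of 16 fits that left out 1 library (APOE4 1, 2, 5, 6 or 8, or APOE3 1, 2, 4, 6 or 7), with log2 0.67 to 0.97. With upper-quartile scaling Marcks passed at log2 1.21 and Sprn also, at 0.72 (adjusted p = 0.0141) against 0.39 with TMM, where 28.9% of 38 genes were called. Calm2 in DC cortex had log2 -0.48 (SE 0.23, adjusted p = 0.100), and passed without APOE4 5 or APOE3 8 (log2 -0.70 to -0.65) and by DESeq2 (log2 -0.59, adjusted p = 0.0443). The share of genes called in those fits was not computed, and in the main edgeR fit it was 24.6%. Slc17a7 in DC cortex, on the ratio scale, had log2 -1.17 (SE 0.39, limma adjusted p = 0.698, below the APOE3 mean in 8 of 8 libraries).

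DD against DC gave no call in 14 tests by edgeR, of which 1 had an unadjusted p under 0.05, and none by DESeq2, while 10.5% of tested genes were called in APOE4 hippocampus and none in the other 3 contrasts. That value was Calm2 in APOE3 cortex, lower after DD (log2 -0.53, SE 0.24, adjusted p = 0.182). On the ratio scale Ctxn1 was 4.05-fold higher after DD than after DC in APOE4 hippocampus (log2 2.02, SE 0.49, limma adjusted p = 0.0419), where 0.12% of all genes were called and the negative probe was high in 1 of 8 DD and 6 of 8 DC libraries. With edgeR the same difference was log2 0.28 (SE 0.19, adjusted p = 0.324), and with wells summed 0.76 (adjusted p = 0.0293). The share of genes called with wells summed was not computed. With total counts Ctxn1, Marcks and Sprn were all called higher after DD there (log2 1.46, 1.27 and 1.11, adjusted p = 0.00136, 0.00136 and 0.00659). In that fit 97.4% of the 38 genes were called, counting both directions. With TMM the values of Marcks and Sprn were below 0, at log2 -0.22 and -0.25, and Sprn passed without DC 7 (log2 -0.45, adjusted p = 0.0356).

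Interactions asked whether the response to treatment differed between genotypes or regions. None of 14 genotype-by-treatment tests passed (2 with an unadjusted p under 0.05, with 3.51% of genes called for DC in cortex, 5.26% for DC in hippocampus and none for DD). Of 16 region-by-treatment tests, 1 passed: the DC response of Calm2 in APOE4 mice was higher in hippocampus than in cortex by log2 1.00 (SE 0.34, adjusted p = 0.0368), where 12.1% of 58 genes were called (1.72% for DD in APOE4, none in APOE3). Leaving out 1 library ended this call in 25 of 32 fits (log2 0.67 to 1.27). It turned to -0.32 with total counts, -0.46 with no filter, -0.01 with wells summed and -0.26 with the ratio. Calm2 had passed the filter in cortex alone. In APOE4 DC hippocampus its median count was 13.5, but the negative probe had a median of 10.9 and the median ratio was 1.37. With vehicle the median count there was 5.5 and the median ratio 2.32. The hippocampus side of this call thus rests on few counts or on values near background. The Ctxn1 value of the same contrast had the other sign, log2 -0.72 (SE 0.28, adjusted p = 0.0670), and passed in 10 of 32 fits that left out 1 library (log2 -0.99 to -0.87). With the pass of wells as a block it also passed (log2 -0.69, adjusted p = 0.0460, 15.5% of genes called), as did the genotype difference in the DC response of Marcks in hippocampus, at log2 1.15 (adjusted p = 0.0495, 10.5% of genes called) against 1.10 (adjusted p = 0.0913) without the block. Leaving out APOE3 vehicle hippocampus 7 also made the Marcks term pass (log2 1.41).

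Within groups, correlations between the genes were weak. With group means removed, Pearson's r between pairs of the 4 tested genes lay between -0.20 and 0.07 over 49 cortex libraries and between -0.26 and 0.04 over 48 hippocampus libraries, values that share each library's depth. Across the 12 group means of log2 CPM, Ctxn1 was most like Tysnd1 (r = 0.92), Gm10265 (0.86) and Trir (0.86) among the 57 other tested genes. Calm2 was most like Tubg1 (0.89), Actb (0.88) and AI413582 (0.81). Marcks was most like Ctxn1 (0.83), Sprn (0.79) and Olig2 (0.78), and Sprn like Marcks (0.79), Olig2 (0.71) and Cd99 (0.70). By Spearman's rho, 0 of the 3 genes named for Marcks were among its top 3, against 2 of 3 for each of the other genes. The 12 means include both regions, so a regional difference shared by 2 genes raises these values.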

How the data were processed

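The deposited table holds expected counts per gene from the authors, not scaled to depth, for 97 libraries; values were whole in all but 4 rows, the lowest value was 1 in 94 libraries, and they were rounded to whole numbers. The counting software is not given in the sources used here; mm10 is named in the submitters' processing notes. For each region, edgeR 4.0.16 (R 4.3.3) was fitted to 6 groups with TMM scaling, filterByExpr (minimum count 10) and quasi-likelihood F tests, and p-values were adjusted by Benjamini-Hochberg over the 57 cortex or 38 hippocampus genes, called at 0.05; a 12-group fit over 58 genes gave the regional contrasts. Log2 CPM used a prior count of 2. Ratios to the negative probe were fitted on the log2 scale with limma 3.58.1 over 19962 genes. There were 32 contrasts. The alternatives were upper-quartile and total-count scaling, DESeq2 1.42.0, no filter, wells summed or as a random block (49 runs of neighbouring wells of a group, 48 of them of 2), leaving out libraries, and the vehicle groups alone. A block for each of 4 passes over the wells of a plate was added after seeing the data. Genes named are the 5, for each the 3 most like it across groups, fixed relatives, and list members that passed a filter. The 5 genes and all lists were chosen with earlier results of these data known. The tests were tried on simulated counts first. Some listed genes are not reported here. Replicate numbers follow accession order.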

Additional observations from a re-analysis of the deposited data

Results flagged for a closer look

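Of 60 sets of ratios (5 genes in 12 groups), 6 held a library farther from the rest than Dixon's test allows, where chance marks about 1 in 20. APOE4 DD cortex 2, with a negative probe of 9.93, was the lowest of its group for Ctxn1 (9.06, next 26.9), Calm2 (2.82, next 5.27) and Sprn (4.63, next 12.1). Ctxn1 was also low in APOE4 vehicle hippocampus 8 (2.68, next 8.12) and in APOE3 DC hippocampus 7 (0.977, next 4.29), where its count was 1. Marcks was low in APOE3 DD hippocampus 5 (1.77, next 3.64), from a count of 2. The DC response of Calm2 in APOE4 differed between hippocampus and cortex by log2 1.00 in the interaction test.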

How the results depend on the processing

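No paired analysis was possible because the labels give the groups no replicate numbers of their own. Calls gained under some settings are given with the results above, in part as counts alone. Values are log2 differences, and the cause of each change was not tested. Regional calls lost: for Calm2 -1.88 (no filter) and -1.89 (ratio) in APOE3 vehicle, -2.04 (no filter) in APOE3 DC, -1.68 (ratio) in APOE4 vehicle, and -1.15 (no filter), -0.55 (random block), -1.16 (ratio) and -0.48 (without libraries with many lone raised genes) in APOE4 DD. For Marcks they were -1.87 (no filter), -1.31 (wells summed) and -1.75 (ratio) in APOE3 DC, and -0.16 (upper quartile), -0.51 (random block) and -0.55 (without high negative probe) in APOE4 DC. For Ctxn1 in APOE4 DD they were -1.02 (no filter), -0.75 (wells summed), -0.44 (random block), -0.95 (ratio) and -0.18 (without lone raised genes). Uncalled regional values turned in APOE3 vehicle to 0.040 and 0.11 for Ctxn1 and 0.098 and 0.21 for Marcks (without lone raised genes, and vehicle groups alone), and for Sprn to 0.019 (random block), 0.066 (without high negative probe), 0.19 (without lone raised genes) and 0.25 (vehicle alone). They also turned to 0.087 for Sprn in APOE4 DD (without lone raised genes), to 0.38 for Calm2 and 0.12 for Sprn in APOE4 DC (upper quartile), and to 0.0052 for Sprn there (without high negative probe).

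The Ctxn1 treatment calls in APOE4 cortex were lost after DD at 0.47 (upper quartile), 0.57 (total counts), 0.52 (no filter, and wells summed), 0.51 (random block), 0.44 (ratio) and 0.45 (without lone raised genes), and after DC at 0.47, 0.70, 0.69, 0.66, 0.53 and 0.29 under the first 6. The Marcks genotype call was lost at 0.41 (total counts), 0.81 (DESeq2), 0.39 (no filter), 0.71 (wells summed), 0.30 (ratio), 0.45 (without high negative probe) and 0.77 (without lone raised genes). The Calm2 interaction turned to -0.32 (total counts), -0.46 (no filter), -0.0092 (wells summed) and -0.26 (ratio), and was lost at 0.75 (DESeq2), 0.59 (random block), 0.27 (without high negative probe) and 0.80 (without lone raised genes). Uncalled values turned for Ctxn1 in APOE3 DC cortex to -0.19 (total counts), -0.058 (no filter), -0.062 (wells summed) and -0.21 (ratio), for its genotype-by-DD term in cortex to -0.048 (no filter) and -0.091 (ratio), for Marcks in APOE4 DC hippocampus to -0.67 (total counts), -0.82 (no filter) and -0.90 (ratio), for Sprn there to -0.67, -0.78, -1.05 and -0.0088 (wells summed), and for Sprn in APOE3 DC hippocampus to 0.053 (upper quartile). For DD against DC in APOE4 hippocampus they turned to 1.27 (total counts), 1.33 (no filter), 0.28 (wells summed), 1.55 (ratio) and 0.21 (without high negative probe) for Marcks, and to 1.11, 1.12, 0.20 and 1.44 under the first 4 for Sprn.

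Calls among the 5 genes were 2 for treatment (also 2 under upper quartile, both in APOE4 DC hippocampus, and total counts, both in APOE3 DC hippocampus, for Marcks and Sprn), and 0 with no filter, wells summed, random block or ratio, and 1 without lone raised genes. They were 8 for region, and 20 with total counts and 5 with no filter, random block or ratio. They were 1 for genotype, and 2 with upper quartile and 0 with total counts, no filter, wells summed, ratio or without lone raised genes. They were 0 between regimens, and 3 with total counts and 1 with wells summed or ratio, and 1 among interactions, and 0 in every alternative but upper quartile (1), DESeq2 (1) and the pass as a block (3). Slc17a7 levels differed by -0.78 between hippocampus and cortex medians, and by -3.48 with the negative probe subtracted.

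Leaving out each library in turn gave, for regional calls, -1.31 to -0.86 (Calm2 APOE3 DC), -1.41 to -0.94 (APOE3 vehicle), -0.69 to -0.35 (APOE4 DD) and -1.20 to -0.80 (APOE4 vehicle), -1.28 to -0.96 (Ctxn1 APOE4 DC) and -0.50 to -0.19 (APOE4 DD), and -1.01 to -0.70 (Marcks APOE3 DC) and -0.65 to -0.45 (APOE4 DC). It gave 0.32 to 0.54 (DD) and 0.38 to 0.60 (DC) for Ctxn1, 0.67 to 0.97 for the Marcks genotype call and 0.67 to 1.27 for the Calm2 interaction. Uncalled regional values that changed sign ran from -0.15 to 0.046 (Calm2 APOE4 DC), -0.39 to 0.057 (Ctxn1 APOE3 vehicle), -0.30 to 0.17 (Marcks APOE3 vehicle), -0.31 to 0.064 (Marcks APOE4 DD), -0.20 to 0.23 (Sprn APOE3 vehicle), -0.13 to 0.16 (Sprn APOE4 DD) and -0.24 to 0.068 (Sprn APOE4 vehicle). Counts of a few tags limit Slc17a7, and Calm2 in hippocampus, except in APOE4 DC hippocampus, where both lay near a high negative probe.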
